A study of Mus musculus with 9 samples.

Results

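The genes described here encode the translation initiation factors eIF1 to eIF6, the elongation factors eEF1 and eEF2 with the enzymes that modify them, and the eIF4A inhibitor Pdcd4. They were chosen by gene symbol: every gene with a probe set that carries a single symbol beginning with Eif1 to Eif6, Eef1 or Eef2, plus Pdcd4, without the Eif2ak kinases. This gave 55 of the 18193 genes measured. For each gene the probe set brightest in the mean of the 9 arrays was used, and 53 of the 55 were tested. The other members, Eif2s3y (-0.13 to 0.38 log2) and Eif4a3 (0.25 to 0.39 log2), lay at background on every array and were not tested. Low readings on these probe sets do not show that the mRNAs were absent. Eif4ebp3, Eif4g1, Eif2s1, Eif1, Eif3g, Eif3j and Eef1g were not analysed here.

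The cells were cytotoxic T lymphocytes grown from the spleens of mice that carry the P14 T cell receptor transgene and are otherwise labelled wild type. This receptor directs CD8 T cells against a peptide, gp33-41, of lymphocytic choriomeningitis virus. All cultures received that peptide with interleukin 2 and interleukin 12 for 48 h and were then kept for 96 h more, to day 6. During the last 48 h they were kept with the solvent DMSO alone, with rapamycin (20 nM) or with KU-0063794 at a dose of 1 uM. The age of the mice was not given in the sources used here. Each group held 3 cultures, each measured on 1 Affymetrix expression array, and each of 3 spleens supplied 1 culture to every group. The p-values below rest on the spread between these 3 spleens, except in a second fit, described below, that removes differences between spleens. There they rest on how far the differences between treatments varied from spleen to spleen. Rapamycin, bound to the protein FKBP12, acts mainly on mTOR complex 1. KU-0063794 occupies the active site of the mTOR kinase and blocks both of its complexes. The comparisons asked which transcripts of established cytotoxic T cells depend on mTOR signalling, and whether the inhibitors differ.

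Translation of most messenger RNAs begins when eIF4E binds the cap of the mRNA and joins the scaffold eIF4G and the helicase eIF4A in the complex eIF4F. The 4E-BP proteins, encoded by Eif4ebp1 to Eif4ebp3, occupy eIF4E until mTOR complex 1 phosphorylates them, and Pdcd4 holds back eIF4A until S6 kinase, which acts downstream of mTOR complex 1, marks it for degradation. In parallel, eIF2 delivers the initiator tRNA, eIF2B reloads eIF2 with GTP, eIF3 holds the small ribosomal subunit, and eEF1 and eEF2 carry out elongation. Activated T cells raise protein synthesis sharply, and this machinery is a main output of mTOR signalling. The arrays measured mRNA levels only; phosphorylation of these proteins and the rate of translation were not measured.

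All values are log2 signals as deposited, so a difference of 1 is a 2-fold change. Array medians lay between 0.47 and 0.53 log2, and the median signal of the 55 genes between 6.34 and 6.62 log2. A background level of 1.45 log2 was set as the 95th percentile of genes restricted to other tissues. By their mean over the 9 arrays 50 of the 55 genes lay above it; Eif5a2, Eef1aknmt, Eef2kmt, Eif2s3y and Eif4a3 did not. Signals of different probe sets depend on their probes, so levels are compared between arrays and not between genes. Of the markers listed for CD8 T cells 7 of 7 measured lay above background in DMSO cultures. The CD8 T cell label was borne out by Cd8a and Cd8b1, while Cd3d, Cd3e, Cd3g, Cd247 and Zap70 mark T cells in general. The log2 values of these 7 markers added up to 47.33 to 49.56 in DMSO cultures, 48.32 to 49.48 under rapamycin and 47.97 to 48.64 under KU-0063794. Of the markers of other cells, 1 of 4 for CD4 T cells (Zbtb7b), 1 of 5 for B cells (Cd79b) and 1 of 7 for myeloid cells (Csf1r) lay above background in DMSO cultures, and none of 2 each for NK and erythroid cells did. By group means Zbtb7b, Cd79b and Csf1r lay above the background level in every group. The other markers measured for these cells, among them Cd4, Foxp3, Pax5, Ms4a1, Cd79a, Itgam, Ncr1 and Hba-a1, lay below it in every group. The log2 values of the 7 myeloid markers added up to 3.52 to 4.30 in DMSO cultures, 2.80 to 3.74 under rapamycin and 3.39 to 4.42 under KU-0063794. Such sums are not comparable with the background level, which holds for a single gene. Among the markers of all lists only Cd68, a myeloid gene below background on every array, passed: it read 0.78 ± 0.13 log2 in DMSO cultures and 0.28 ± 0.12 under rapamycin (SD, n = 3; adjusted p = 0.0208 in limma), and 0.44 ± 0.04 under KU-0063794 (0.0869). Its part in the results below was not tested. The actin control read higher at its 3' end than at its 5' end, a gap that widens as RNA degrades. The gap was 0.49 to 0.65 log2 in DMSO cultures, 0.62 to 0.72 under rapamycin and 0.65 to 0.70 under KU-0063794, and in every spleen both treated cultures had the wider gap. The same gap of the Gapdh control went the other way in every spleen, from -0.21 to 0.04 log2 in DMSO cultures, -0.25 to -0.03 under rapamycin and -0.22 to -0.03 under KU-0063794. The part of these gaps in the results below was not tested.

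Sequences around the annotated transcription start are shown for Eif3f, Pdcd4 and Eif2s2, the genes whose mRNA changed with rapamycin and for which RefSeq promoter sequences (build GRCm38.p6) were given, and for Eif2s3x and Eef1a1, the other members with a pyrimidine run at the start. mRNAs that begin with such a run, called 5' terminal oligopyrimidine mRNAs, are a known class whose translation depends on mTOR complex 1; ribosomal protein and elongation factor mRNAs are its best known members. Capitals mark an unbroken run of at least 5 pyrimidines from the start base on, and in Eif3f also the E-box CACGTG, a binding sequence of MYC and related factors, whose first base lies 68 bases before the start. The first 3 sequences hold 80 bases before the start and 20 from it on, and the last ones 10 and 20.
Eif3f, chr7:108934335-108934434, + strand: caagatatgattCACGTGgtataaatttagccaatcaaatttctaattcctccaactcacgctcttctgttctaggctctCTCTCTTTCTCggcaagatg
Pdcd4, chr19:53892151-53892250, + strand: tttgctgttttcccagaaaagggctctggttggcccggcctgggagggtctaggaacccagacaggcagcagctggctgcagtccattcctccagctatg
Eif2s2, chr2:154892887-154892986, - strand: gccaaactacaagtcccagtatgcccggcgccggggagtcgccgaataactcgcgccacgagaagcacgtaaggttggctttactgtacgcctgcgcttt
Eif2s3x, chrX:94212632-94212661, - strand: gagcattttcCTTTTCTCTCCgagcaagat
Eef1a1, chr9:78481705-78481734, - strand: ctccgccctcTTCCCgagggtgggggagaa
The run was 11 bases long in Eif3f and in Eif2s3x and 5 in Eef1a1, while Eif2s2 began with 2 pyrimidines and Pdcd4 with none.

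Promoter windows of 300 bases, 250 before the start and 50 from it on, were given for 44 of the 55 genes, 59 windows in all because some genes have several starts. A pyrimidine run of at least 5 bases from the start base was found in 3 of the 59 windows, 5.08%, against 4.44% of all 32851 windows. This count takes the annotated start as the first base of the mRNA and lets the run begin with C or T. A run that begins a few bases away is missed, so the count is not one of 5' terminal oligopyrimidine mRNAs. The E-box CACGTG, which reads the same on both strands, was found in 14 member windows, 23.7%, of 12 genes, among them Eif3f, Eif3k, Eif4e, Eif4a1, Eif5a, Eef2 and Eef2k, against 7.15% of all windows. Windows of the same gene can overlap, so these shares are descriptions. The core of the amino acid response element, TGATGCAA on either strand, was found in 0 of the 59 windows and in 0.895% of all windows. This says only that these letters are not in these stretches. With so low a share in all windows, a count of 0 cannot set the members apart. Eif4ebp1 was among the 11 genes without a window, so its promoter was not searched for any of these sequences. Of the 12 genes with an E-box, Eif3f rose with rapamycin and the others did not pass with either inhibitor. Their log2 differences from DMSO with rapamycin and KU-0063794 were -0.44 and -0.32 for Eef2k, 0.30 and 0.25 for Eif3k and 0.34 and 0.25 for Eif5a2, and lay between -0.14 and 0.06 for the other 8.

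With rapamycin 4 of 53 translation factor genes changed: Pdcd4 and Eif3f rose, and Eif4ebp1 and Eif2s2 fell (limma, adjusted p under 0.05 over all 13278 genes tested). With KU-0063794 only Eif4ebp1 fell, 1 of 53. Over all genes tested 4.44% passed for rapamycin, 2.65% higher and 1.79% lower, and 4.07% for KU-0063794, 2.28% higher and 1.78% lower, so the members' counts were near the background of all genes. The median log2 difference of the 53 genes was 0.01 with each inhibitor, and 28 differences were positive and 25 negative in each comparison; over all genes the medians were 0.00 and 0.01. Both comparisons use the same 3 DMSO arrays, so their values are not independent. In a population of cells, fewer cells of a type and less RNA per cell cannot be told apart in any of these values.

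A fit with the spleen as a block, called spleen-blocked below, removes differences between spleens, and it moved these counts by over 1.5 times. With it 8 of 53 genes passed for rapamycin, 3 higher and 5 lower, and 5 for KU-0063794, 3 higher and 2 lower. The background rose as well, to 11.8% of all genes for rapamycin (6.24% higher, 5.52% lower) and 12.4% for KU-0063794 (6.52% higher, 5.86% lower). The 4 genes called for rapamycin were then called for both inhibitors in the same direction. Eif3k was also higher and Eef1e1, Eef2k and Eif2b4 lower with rapamycin, and Eif4e3 higher with KU-0063794.

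Most of the machinery differed little between groups. The 95% interval of the difference lay within 0.5 log2 on either side of 0 for 41 of 53 genes with rapamycin and for 45 with KU-0063794, and its median half-width was 0.20 log2. The rapamycin and DMSO values did not overlap for 18 genes, 34% of those tested, 6 of them above and 12 below DMSO. Over all genes tested that share was 19.1%, and over the 7938 genes above background it was 26.8%. For KU-0063794 the values of 11 genes, 20.8%, did not overlap with DMSO, against 20.2% of all genes and 29.6% of those above background.

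**Figure D1:**
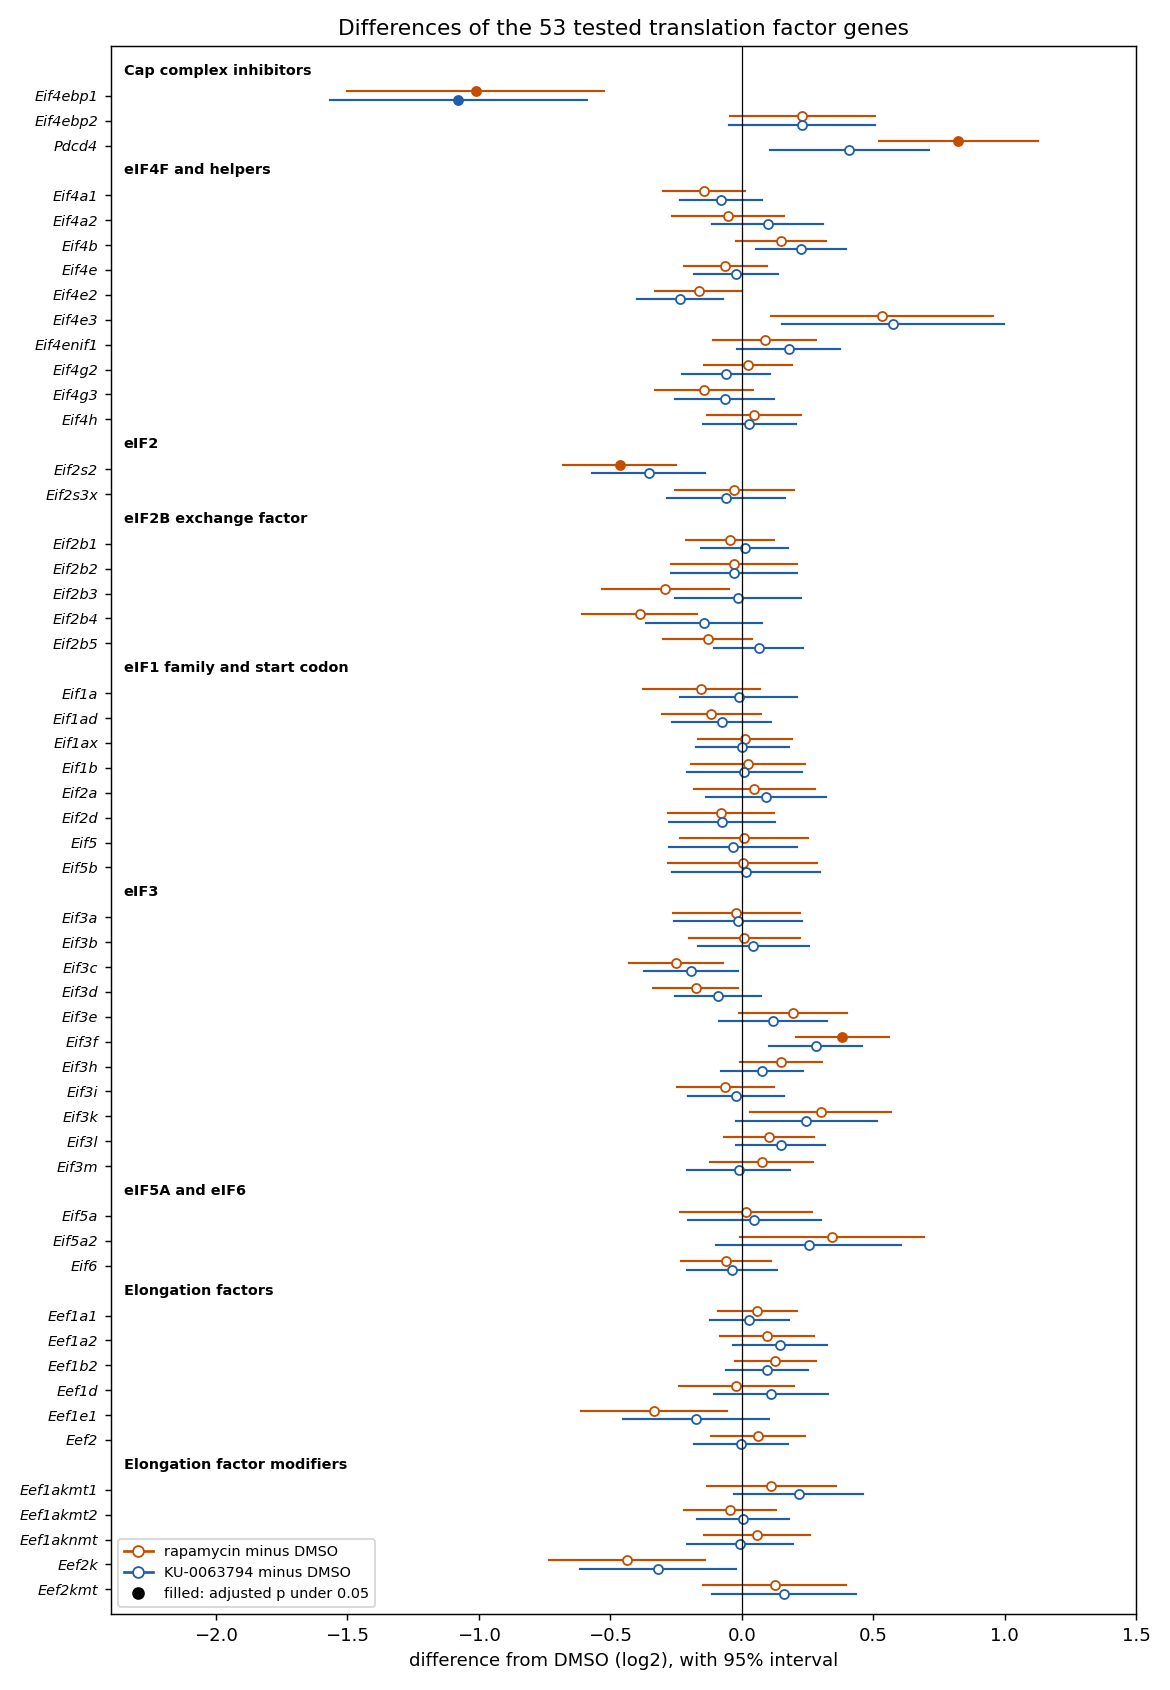
Difference from DMSO in log2 signal for the 53 tested genes, grouped by role, with rapamycin in orange and KU-0063794 in blue; points are differences of group means (n = 3 each), bars are 95% intervals from limma, and filled points passed an adjusted p of 0.05. Eif4ebp1 stands at -1.01 and -1.08, Pdcd4 at 0.82 and 0.41, and most other intervals include 0.

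The largest difference of a member was that of Eif4ebp1 with either drug, and the next with rapamycin was that of Pdcd4; both encode inhibitors of the cap complex. Eif4ebp1 (chr8:27260327-27275656 in GRCm38.p6), which encodes the eIF4E-binding protein 4E-BP1, fell by about a factor of 2 with either drug. Its signal was 7.16, 6.91 and 6.53 log2 in DMSO cultures of spleens 1, 2 and 3, 6.05, 6.05 and 5.48 with rapamycin, and 5.92, 6.01 and 5.44 with KU-0063794. Every treated culture lay below every DMSO culture, and spleen 3 was the lowest in each group. The group means were 6.87 ± 0.32 log2 in the DMSO cultures, 5.86 ± 0.33 under rapamycin and 5.79 ± 0.31 under KU-0063794 (SD, n = 3). The log2 difference was -1.01 for rapamycin (SE 0.22, 0.496 of the DMSO signal, adjusted p = 0.0338 in limma). For KU-0063794 it was -1.08 (SE 0.22, 0.474 of the DMSO signal, adjusted p = 0.0286 in limma).

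Within the spleens the fall of Eif4ebp1 was even: -1.11, -0.87 and -1.05 with rapamycin and -1.24, -0.90 and -1.09 with KU-0063794. A second bright probe set of the gene gave -1.0 and -0.94, while another lay below the background level. The probe set used has a name ending in _x_at, which the manufacturer gives to sets that may bind other transcripts as well; the second has not. The rapamycin call depended on which array was left out. It was lost without DMSO replicate 1 (adjusted p = 0.121 in limma) or 2 (0.0796), without rapamycin replicate 1 (0.0676), 2 (0.0642) or 3 (0.109), and without KU-0063794 replicate 1 (0.0586). The KU-0063794 call was lost without DMSO replicate 1 (0.109) or 2 (0.0627) and without KU-0063794 replicate 1 (0.0765), 2 (0.0649) or 3 (0.0964), and over all arrays left out in turn the difference stayed between -1.25 and -0.82 log2 for the pair of inhibitors.

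Eif4ebp2 encodes 4E-BP2, the close relative of 4E-BP1, and did not pass. It read 4.60, 5.04 and 4.68 log2 in the DMSO cultures, 4.98, 5.09 and 4.95 under rapamycin and 4.87, 5.12 and 5.02 under KU-0063794. The groups overlapped, since the DMSO culture of spleen 2 lay among the treated ones. The difference was 0.23 log2 with either drug (adjusted p = 0.377 and 0.37 in limma), with 95% intervals from -0.05 to 0.51. Its other probe sets were all below the background level.

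Pdcd4 (chr19:53892231-53937592), the inhibitor of the eIF4A helicase, rose with rapamycin. It read 5.36, 5.16 and 5.60 log2 in the DMSO cultures, 6.31, 6.02 and 6.26 under rapamycin and 5.91, 5.60 and 5.84 under KU-0063794. The rapamycin cultures lay above all others, and the KU-0063794 cultures lay between, with spleen 2 level with the highest DMSO culture. The rapamycin difference was 0.82 log2 (SE 0.14, 95% interval 0.52 to 1.13, 1.77-fold, adjusted p = 0.0136 in limma). The KU-0063794 difference was 0.41 log2 (95% interval 0.11 to 0.71, adjusted p = 0.137 in limma) and passed in the spleen-blocked fit (0.0168).
Within the spleens the rapamycin differences were 0.95, 0.86 and 0.66 log2 and the KU-0063794 differences 0.55, 0.44 and 0.24 log2, all upward. The rapamycin call was lost by a small margin without DMSO replicate 1 (adjusted p = 0.0520), rapamycin replicate 1 (0.0516) or rapamycin replicate 3 (0.0571). The gene had a single probe set.

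**Figure D2:**
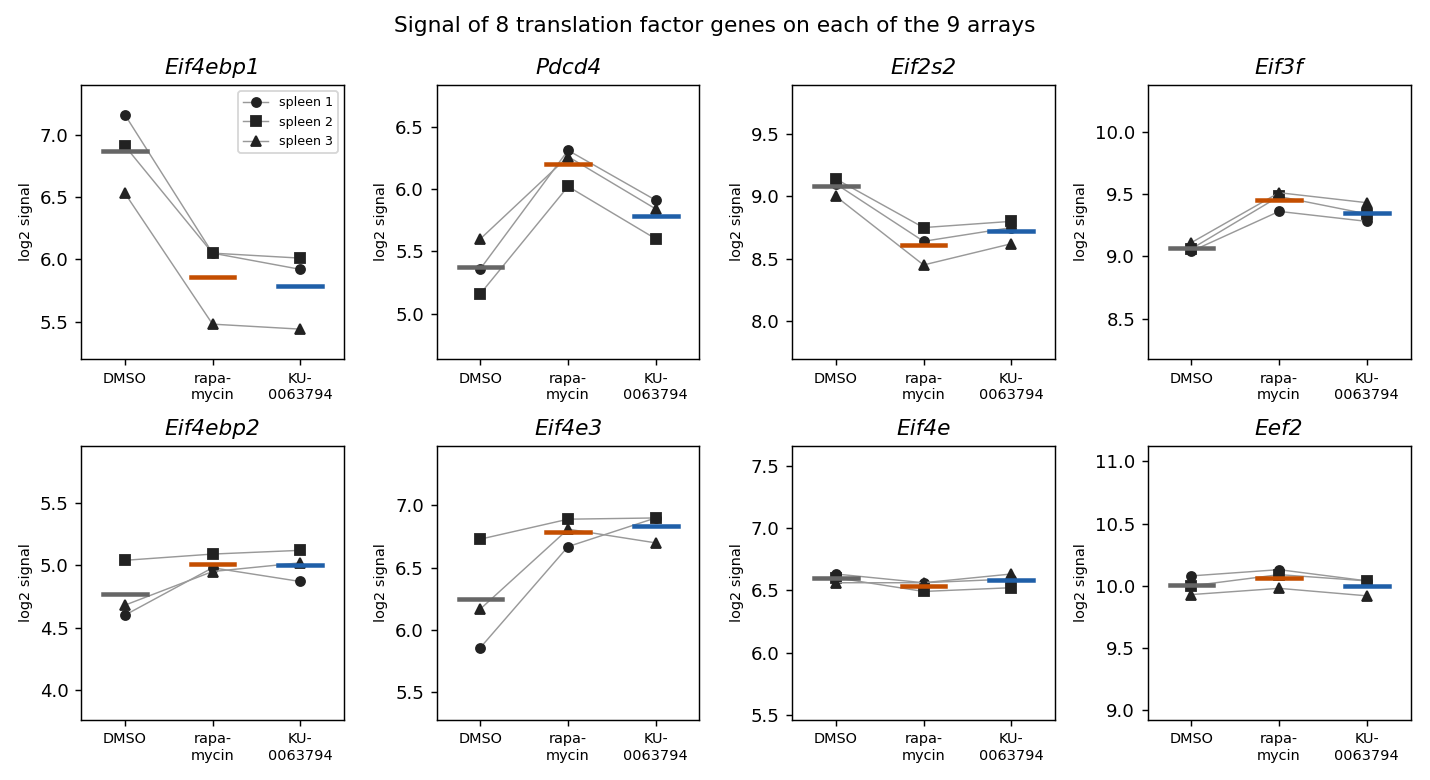
Log2 signal of 8 genes on each of the 9 arrays; marks are cultures of spleens 1 (circle), 2 (square) and 3 (triangle), lines join cultures of the same spleen, coloured bars are group means, and all panels span the same number of log2 units. Eif4ebp1 and Eif2s2 lie lower and Eif3f higher in every spleen with both inhibitors, Pdcd4 is highest with rapamycin, and the groups of Eef2 overlap while those of Eif4e lie close together.

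Of the eIF4F subunits and their helpers none of 10 tested passed with either drug, and their median log2 differences were -0.01 with rapamycin and 0.00 with KU-0063794. Eif4e, the cap-binding protein that 4E-BP1 holds, read 6.63, 6.60 and 6.56 log2 in the DMSO cultures, 6.56, 6.49 and 6.56 under rapamycin and 6.59, 6.52 and 6.63 under KU-0063794. All lay within a narrow band, the rapamycin cultures just below the DMSO cultures and the KU-0063794 cultures overlapping with them. The differences were -0.06 and -0.02 log2, with 95% intervals from -0.22 to 0.10 and from -0.18 to 0.14. A second, dimmer probe set of Eif4e, with a mean of 3.98 log2, went the other way. It gave 0.12 and 0.14 log2, with all treated cultures above all DMSO cultures. The helicase gene Eif4a1 read 10.21 ± 0.07 log2 in DMSO cultures and differed by -0.14 and -0.08 log2. Eif4b, whose protein stimulates eIF4A and is phosphorylated by S6 kinase, read 7.39, 7.52 and 7.47 log2 in the DMSO cultures, 7.57, 7.59 and 7.67 under rapamycin and 7.63, 7.66 and 7.76 under KU-0063794. All treated cultures lay above all DMSO cultures, by 0.15 and 0.23 log2 in the mean, but the adjusted p in limma was 0.35 and 0.143. All 3 bright probe sets of Eif4b had positive differences with both drugs.

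The other cap-binding proteins had larger differences than Eif4e. Eif4e3, a divergent member of the eIF4E family, read 5.86, 6.73 and 6.17 log2 in the DMSO cultures, 6.67, 6.89 and 6.81 under rapamycin and 6.90, 6.90 and 6.70 under KU-0063794. Spleen 2 was already high in DMSO, so the groups overlapped, and the other spleens were higher by 0.80 and 0.64 log2 with rapamycin and by 1.03 and 0.53 with KU-0063794. The differences of 0.53 and 0.57 log2 did not pass (adjusted p = 0.167 and 0.133 in limma), and in the spleen-blocked fit KU-0063794 passed (0.0628 and 0.0468). Its second probe set gave 0.49 and 0.54 log2 and passed for both drugs when each probe set was tested by itself (adjusted p = 0.0487 and 0.0362 in limma). Without DMSO replicate 2 the gene passed for both drugs (0.0191 and 0.0185). Eif4e2, which encodes the cap-binding repressor 4EHP, differed by -0.16 and -0.23 log2, its treated cultures lying below all DMSO cultures, and did not pass (0.281 and 0.117).

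Within eIF2, the carrier of the initiator tRNA, the subunits differed. Eif2s2 (chr2:154871410-154892906), which encodes the beta subunit, read 9.10, 9.14 and 9.0 log2 in the DMSO cultures, 8.64, 8.75 and 8.45 under rapamycin and 8.75, 8.80 and 8.62 under KU-0063794. No treated culture reached the lowest DMSO culture. Eif2s2 fell by 0.46 on the log2 scale with rapamycin (SE 0.10, 0.725 of the DMSO signal, adjusted p = 0.0295 in limma). With KU-0063794 the difference was -0.35 log2 (0.782 of the DMSO signal, adjusted p = 0.0811), which passed in the spleen-blocked fit (0.0141). The within-spleen differences were -0.46, -0.39 and -0.55 with rapamycin and -0.35, -0.33 and -0.38 with KU-0063794. The other 3 probe sets of the gene above 7 log2 gave -0.45, -0.45 and -0.47 for rapamycin and -0.43, -0.47 and -0.29 for KU-0063794; a dim further one gave -0.06 and -0.10.

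Eif2s3x, the X-linked gene of the gamma subunit, read 7.88 ± 0.09 log2 in the DMSO cultures, 7.85 ± 0.18 under rapamycin and 7.82 ± 0.06 under KU-0063794. Its differences of -0.03 and -0.06 log2 were within the spread between cultures. Eif2s3x shares with Eif3f a pyrimidine run of 11 bases at its start, whose part in mRNA levels was not tested. The rapamycin call of Eif2s2 was lost without any single DMSO array (adjusted p = 0.0989, 0.0723 and 0.0546 for replicates 1, 2 and 3) and without rapamycin replicate 1 (0.0787), rapamycin replicate 3 (0.0881) or KU-0063794 replicate 1 (0.0539). With 1 value per gene averaged over all its probe sets, dim ones included, Eif2s2 did not pass.

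The 5 subunit genes of eIF2B, the exchange factor that reactivates eIF2, all had negative differences with rapamycin, with a median of -0.13 log2, and none passed. Eif2b4, the delta subunit, read 4.14, 4.28 and 4.39 log2 in the DMSO cultures, 3.87, 4.01 and 3.77 under rapamycin and 4.20, 4.03 and 4.16 under KU-0063794. The rapamycin cultures lay below all others, whereas KU-0063794 and DMSO overlapped. Its rapamycin difference was -0.39 log2 (adjusted p = 0.0586 in limma, 0.0456 in the spleen-blocked fit) and its KU-0063794 difference -0.14 log2 (0.498). The rapamycin difference of Eif2b4 also passed with a filter at the background level, and with values averaged over all probe sets of a gene. Eif2b5, which encodes the catalytic epsilon subunit, read 5.54, 5.54 and 5.60 log2 in the DMSO cultures, 5.45, 5.40 and 5.44 under rapamycin and 5.54, 5.61 and 5.72 under KU-0063794. Here too the rapamycin cultures were the lowest, by 0.09 to 0.15 log2 within the spleens (adjusted p = 0.42). With KU-0063794 the median of the 5 genes was -0.01 log2.

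Of 11 subunit genes of eIF3, the scaffold of the small ribosomal subunit, Eif3f rose with rapamycin and 10 did not pass; the median differences were 0.08 log2 with rapamycin and 0.04 with KU-0063794. Eif3f (chr7:108934415-108941942) read 9.04, 9.06 and 9.11 log2 in the DMSO cultures, 9.36, 9.48 and 9.51 under rapamycin and 9.28, 9.34 and 9.43 under KU-0063794. Both treated groups lay above DMSO without overlap. The rapamycin difference was 0.38 log2 (SE 0.08, 1.30-fold, adjusted p = 0.0285 in limma), and the KU-0063794 difference was 0.28 log2 (1.22-fold, adjusted p = 0.0876, or 0.0285 in the spleen-blocked fit). The gene had a single probe set. The rapamycin call was lost without DMSO replicate 1 (0.0975), 2 (0.0629) or 3 (0.0602), or without rapamycin replicate 1 (0.0502), 2 (0.0843) or 3 (0.0942).

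The eIF3 subunits had differences in both directions. Eif3k, with a rapamycin difference of 0.30 log2, read 7.65, 7.72 and 7.95 log2 in the DMSO cultures, 8.02, 7.93 and 8.27 under rapamycin and 7.94, 7.95 and 8.17 under KU-0063794. The groups overlapped because spleen 3 was high in all of them, and the gene passed for rapamycin in the spleen-blocked fit (adjusted p = 0.0264 in limma, 0.222 without it). Eif3c went the other way and read 8.73, 8.56 and 8.61 log2 in the DMSO cultures, 8.39, 8.30 and 8.45 under rapamycin and 8.43, 8.40 and 8.48 under KU-0063794. Its treated cultures lay below all DMSO cultures, the differences were -0.25 and -0.19 log2, and it did not pass (adjusted p = 0.126 and 0.233 in limma). For rapamycin it did pass with values averaged over all probe sets of a gene, and in a trended, robust fit. All 4 of its probe sets had negative differences, from -0.67 to -0.14 log2, although the pair of brightest ones again carry names ending in _x_at. Eif3a, the largest subunit, differed by -0.02 and -0.01 log2 on the probe set used, on which the groups overlapped throughout. Its other probe sets disagreed. The next brightest gave 0.19 and 0.25 log2, with all KU-0063794 cultures above all DMSO cultures. A dimmer one gave 0.07 and -0.01 log2, and the dimmest gave -0.19 and -0.29 log2.

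**Figure D3:**
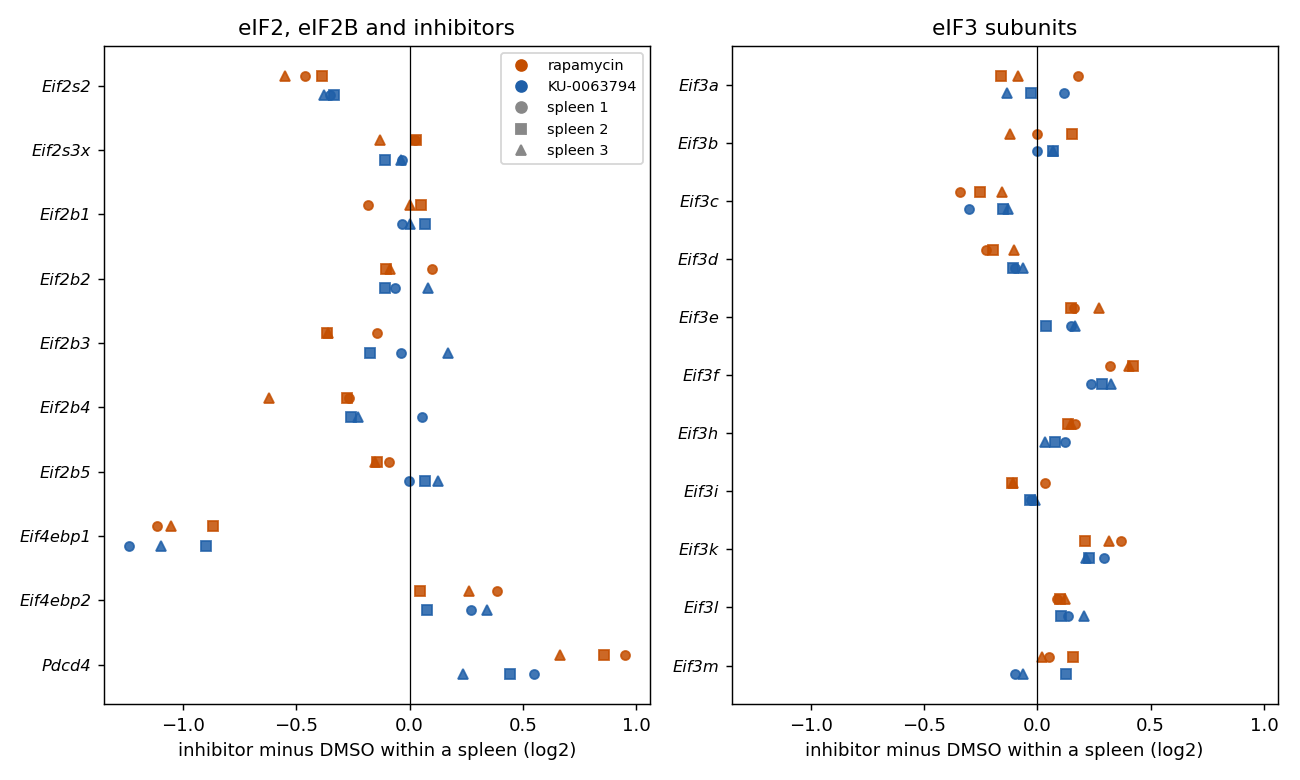
Inhibitor minus DMSO within each spleen in log2 signal, for the eIF2 and eIF2B subunits and the cap complex inhibitors (left) and for the eIF3 subunits (right), with rapamycin in orange and KU-0063794 in blue and a mark for each spleen. All 3 spleens lie below 0 for Eif4ebp1 and Eif2s2 and above 0 for Pdcd4, Eif3f and Eif3k with both inhibitors, whereas Eif3c and Eif3d lie below 0.

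None of the 8 genes of the eIF1 family and start codon recognition passed with either drug, with differences between -0.15 and 0.09 log2 on the probe sets used. For Eif5, the GTPase activator of eIF2, the probe sets disagreed. The brightest, with a mean of 6.81 log2, gave 0.01 and -0.03 log2 for rapamycin and KU-0063794, and the next, with a mean of 6.79 log2, gave -0.36 and -0.43. Another gave -0.21 and -0.42, and none of them passed without the spleen block when each probe set was tested by itself (the lowest adjusted p in limma were 0.0936 and 0.072, for these 2 with KU-0063794). Eif1a showed a like split, -0.15 and -0.01 log2 on the probe set used and -0.45 and -0.30 on the other. Eif1ad gave -0.12 and -0.08 log2 on the probe set used. Its other one, with a mean of 4.78 log2, gave 0.18 and 0.26, with all treated cultures above all DMSO cultures. What each probe set detects was not tested, so the values of Eif5, Eif1a, Eif1ad, Eif4e and Eif3a hold for the probe set used only.

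**Figure D4:**
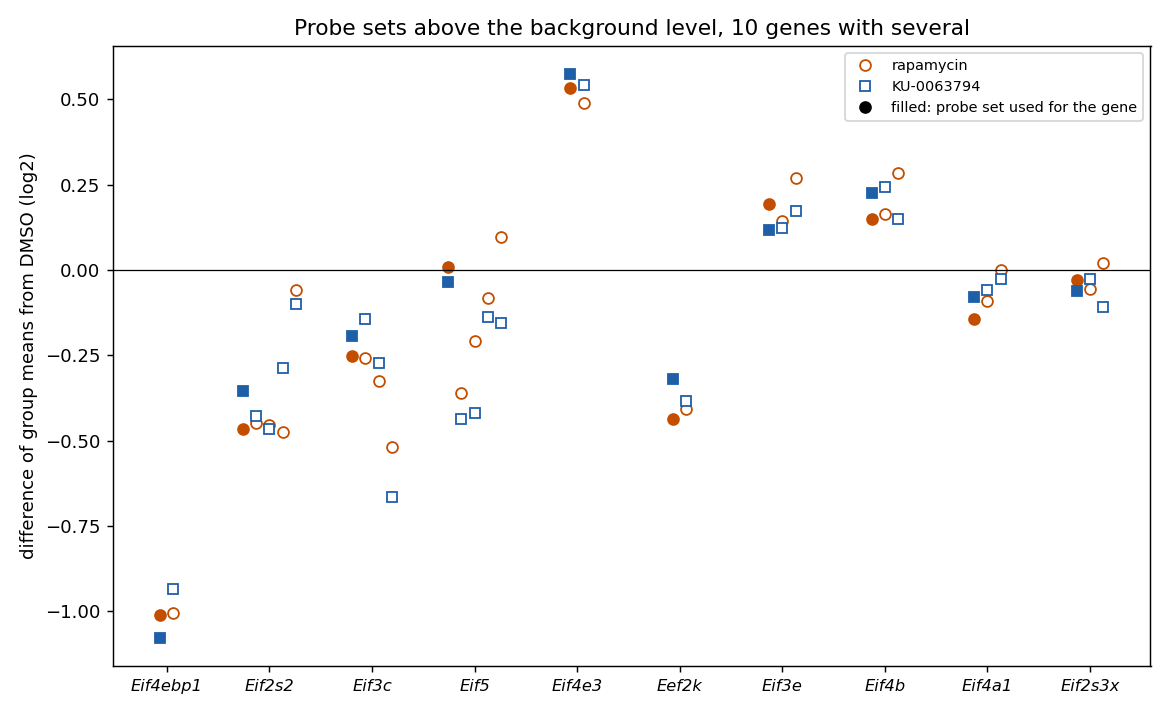
Difference of group means from DMSO in log2 signal for every probe set above the background level of 10 genes that have several, with rapamycin as circles, KU-0063794 as squares and the probe set used for the gene filled. Probe sets lie close together for Eif4ebp1, Eif4e3 and Eef2k and spread widely for Eif5, Eif3c and the dim probe set of Eif2s2.

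None of the 6 elongation factor genes passed, and the median differences were 0.06 log2 with each drug. Eef1a1, which brings charged tRNAs to the ribosome, read 11.97, 11.90 and 11.92 log2 in the DMSO cultures, 12.03, 11.97 and 11.98 under rapamycin and 11.97, 11.94 and 11.97 under KU-0063794. Eef2, the translocation factor, read between 9.93 and 10.08 log2 in the DMSO cultures, between 9.98 and 10.13 under rapamycin and between 9.92 and 10.04 under KU-0063794. All groups of both genes overlapped, and the 95% intervals of their differences lay between -0.19 and 0.24 log2. Eef1b2, an exchange factor for eEF1A, read 10.51 ± 0.03 log2 in DMSO and differed by 0.13 and 0.10 log2, higher in all 3 spleens, without passing (adjusted p = 0.38 and 0.528 in limma).
Eef1e1, which carries an elongation factor symbol but whose protein is part of the complex of tRNA synthetases, differed by -0.33 and -0.17 log2 and passed for rapamycin in the spleen-blocked fit (adjusted p = 0.018 in limma, 0.19 without it).

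Among the modifiers, Eef2k encodes the kinase that inactivates eEF2 and is itself restrained by S6 kinase. It read 3.71, 3.71 and 3.73 log2 in the DMSO cultures, 3.01, 3.35 and 3.48 under rapamycin and 3.19, 3.51 and 3.50 under KU-0063794. The DMSO cultures were nearly equal and all treated cultures lay below them. The differences were -0.44 and -0.32 log2, which did not pass (adjusted p = 0.106 and 0.235 in limma); in the spleen-blocked fit rapamycin passed (0.0259) and KU-0063794 did not (0.0739). A second, dimmer probe set gave -0.41 and -0.38 log2. None of the 4 methyltransferase genes that modify eEF1A or eEF2 passed, and Eef1aknmt and Eef2kmt lay below background on all arrays. Eif5a, whose protein carries the modified amino acid hypusine, differed by 0.02 and 0.05 log2, and Eif6, which keeps ribosomal subunits apart, by -0.06 and -0.04 log2.

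The inhibitors were then compared directly. None of the 53 genes, and 0% of all 13278 genes, differed between KU-0063794 and rapamycin in limma, with or without the spleen as a block; at an unadjusted p under 0.05 there were 4 members and 629 genes. The 95% interval lay within 0.5 log2 of 0 for 50 of the 53 genes. Pdcd4 had the largest difference, -0.41 log2 (95% interval -0.72 to -0.11, adjusted p = 0.933, or 0.296 in the spleen-blocked fit). It was -0.40, -0.42 and -0.43 log2 in the 3 spleens, and the groups did not overlap. Eif2b3, Eif2b4 and Eif2b5 were higher with KU-0063794 in all 3 spleens, by 0.28, 0.24 and 0.19 log2 (adjusted p = 0.933 each), also without overlap. For Eif4ebp1 the difference was -0.07 log2 (95% interval -0.55 to 0.42). In all, 7 genes had inhibitor groups that did not overlap, 13.2%, against 8.16% of all genes and 10.1% of those above background.

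Other genes of translation control were read beside these, from a list of mTOR complex members, S6 kinase and its substrates, eIF2 kinases, poly(A)-binding proteins and release and rescue factors. Of 40 measured, 2 rose and none fell with rapamycin, and 2 rose and 1 fell with KU-0063794, beside 4.44% and 4.07% of all genes tested. In the spleen-blocked fit 3 were higher and 3 lower with rapamycin, and 4 higher and 3 lower with KU-0063794. The shares of all genes tested were then 11.8% for rapamycin and 12.4% for KU-0063794. Paip2 encodes an inhibitor of the poly(A)-binding protein, and thus another brake on cap-dependent initiation. It read 6.10, 6.22 and 5.96 log2 in the DMSO cultures, 6.74, 6.84 and 6.58 under rapamycin and 6.54, 6.70 and 6.55 under KU-0063794. Both treated groups lay wholly above DMSO, by 0.63 and 0.50 log2 (adjusted p = 0.013 and 0.0278 in limma). Rps6, the S6 protein that gives S6 kinase its name, was the other gene that rose with both, by 0.52 and 0.40 log2 (adjusted p = 0.0127 and 0.0294 in limma). Rps6 read 5.21 ± 0.10 log2 in DMSO cultures, 5.72 ± 0.07 under rapamycin and 5.60 ± 0.06 under KU-0063794 (SD, n = 3). Its other probe set lay below the background level.

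Pelo, which rescues stalled ribosomes, fell by 0.61 on the log2 scale with KU-0063794 (adjusted p = 0.0184 in limma); with rapamycin the difference was -0.43 (0.0569, or 0.0251 in the spleen-blocked fit). Mknk2, which encodes a kinase of eIF4E, differed by 0.32 and 0.29 log2 and passed in the spleen-blocked fit (0.0242 and 0.0359), not without it (0.135 and 0.178). The other genes called in the spleen-blocked fit alone were Hbs1l, the partner of Pelo, lower with both drugs (-0.41 and -0.33 log2, adjusted p = 0.0181 and 0.0368), Fbxw11, lower with rapamycin (-0.28, 0.0388), and, with KU-0063794, the eIF4E kinase gene Mknk1, lower (-0.31, 0.0263), and the poly(A)-binding protein gene Pabpc4, higher (0.28, 0.0455). The differences of Mtor itself were 0.06 and 0.16 log2 and those of Pabpc1 0.00 and 0.03. Those of the eIF2 kinase genes Eif2ak3 and Eif2ak4 were -0.09 and 0.01 with rapamycin and -0.27 and 0.05 with KU-0063794. None of 9 mitochondrial translation factor genes passed in either fit, and Tufm differed by -0.17 and -0.21 log2 (adjusted p = 0.403 and 0.289).

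**Figure D5:**
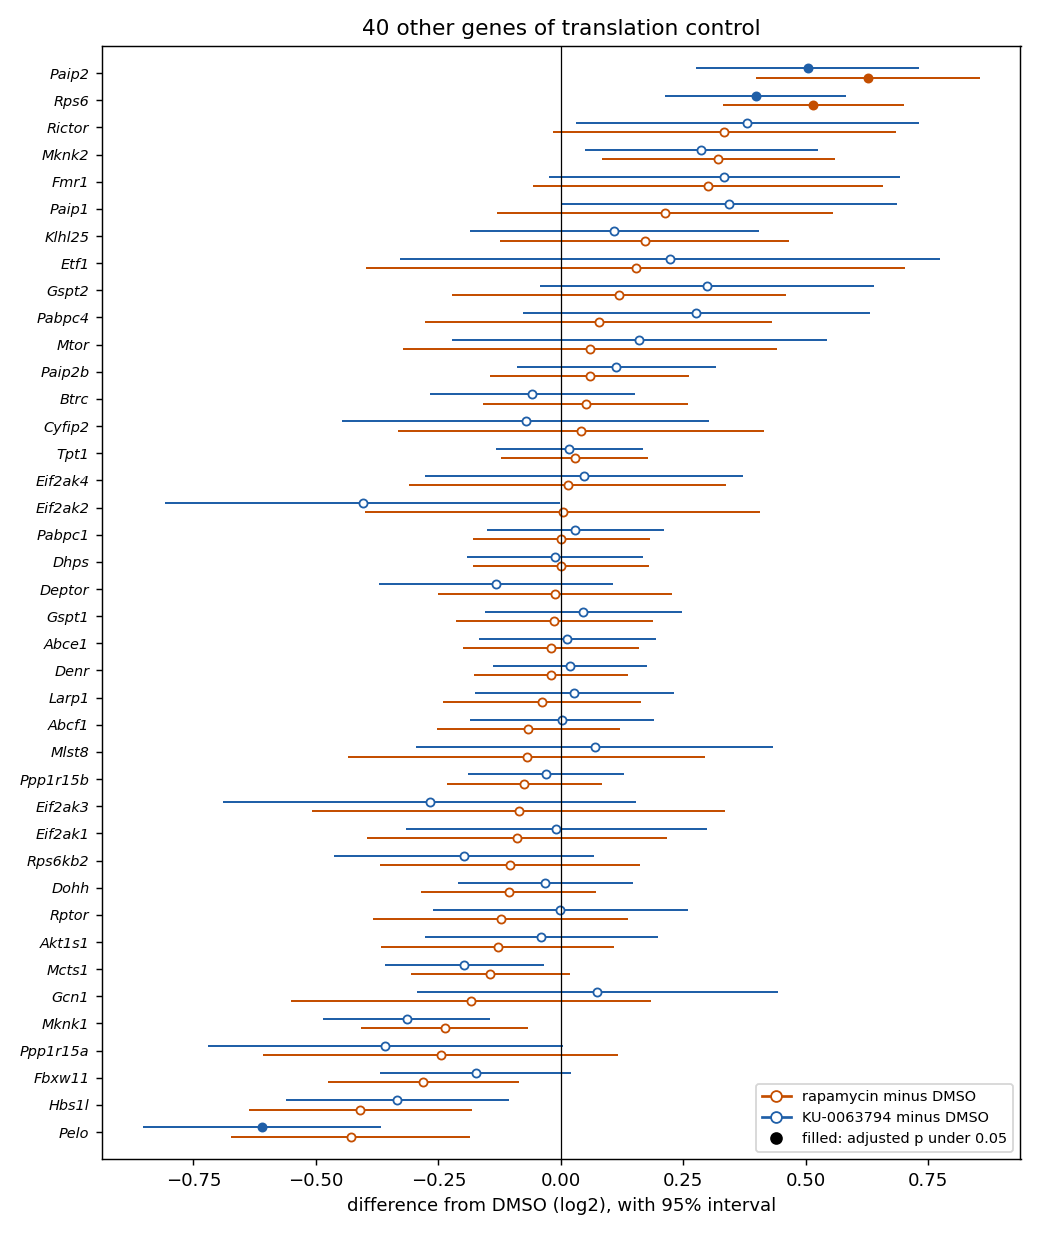
Difference from DMSO in log2 signal for the 40 other genes of translation control, ordered by the rapamycin difference, with rapamycin in orange and KU-0063794 in blue, 95% intervals from limma as bars (n = 3 cultures a group) and filled points where the adjusted p was under 0.05. Paip2 and Rps6 are filled for both inhibitors and Pelo for KU-0063794 only.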

How the data were processed

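Total RNA of 9 cultures was measured on 9 Affymetrix mouse arrays. The authors deposited log2 signals per probe set, made with Affymetrix Expression Console 1.3.1 per the submitters' processing notes; how background was corrected and arrays were normalized is not given in the sources used here. On the hybridisation controls the values rose by 1.04 log2 per doubling of the nominal concentration. The deposited values were used unchanged. Of 45037 probe sets other than controls, 34945 had a single symbol in the platform annotation, 932 several and 9160 none, and only the first were used. Genes were tested when their mean exceeded the 40th percentile of probe sets (0.31 log2), which left 13278, and 7938 of these lay above the background level, set on 28 of 32 listed tissue-restricted genes.

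limma 3.58.1, run in R 4.3.3, tested the differences (lmFit and eBayes, 3 groups over 9 arrays, two-sided, Benjamini-Hochberg over all genes tested, threshold 0.05). The labels say that control and treated cells came from the same spleens, so the replicate numbers pair the arrays. Deviations from the group means correlated across genes with r 0.345 to 0.533 in all 9 pairs of the same number and -0.414 to -0.0791 in the 18 others. The deviations of a group cancel out, so negative values among the others follow from the positive ones and add no separate evidence. The fit without the spleen is the main one, and the fit with it as a block is given where it changed a call. Genes named were all members called, a fixed panel, and the members with the highest level or the largest differences. Eif2b3, Eif2b4, Eif3c, Eif3k, Eif4e2, Eef1e1, Eef1aknmt, Eef2kmt, Eif5, Eif1a, Eif1ad and Eif5a2 were named after their values were seen. So were Hbs1l, Fbxw11, Mknk1, Pabpc4 and Cd68 among other genes. The members and lists were chosen with earlier results of these data known. The fitting was tested on simulated data. Positions and promoter sequences are from RefSeq (GRCm38.p6); probe sets carry no positions.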

Additional observations from a re-analysis of the deposited data

How the results depend on the processing

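With the spleen as a replicate block the count of translation factor genes called rose from 4 to 8 for rapamycin and from 1 to 5 for KU-0063794, and that of all genes from 590 to 1561 and from 540 to 1644; no member lost its call. Fitting only the 2 groups compared left 0 members for either inhibitor and 98 and 111 of all genes. For KU-0063794 a trended, robust fit called 3 members and testing every probe set by itself, an alternative chosen after seeing the data, called 2. Leaving out each array in turn gave 0 to 4 members for rapamycin and 0 to 1 for KU-0063794, and 183 to 514 and 123 to 548 of all genes; no member was called for rapamycin without DMSO replicate 1, rapamycin replicate 1 or rapamycin replicate 3. These fits hold fewer arrays, and the cause was not tested. Quantile normalization, median centring, no filter, a filter at the background level and the mean of all probe sets gave 4 or 5 members for rapamycin and 1 for KU-0063794. The count for KU-0063794 against rapamycin was 0 throughout. The 18 named members tested gave 918 values over all these settings and comparisons. Only the values of the 4 calls for rapamycin and the 1 for KU-0063794 in the main fit could lose a call. Of those values 32 lost it, by far most of them in fits that held fewer arrays, and none that was called changed sign. Among the values not called in the main fit 9 gained a call. Arrays per group limit precision.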
